A study of Mus musculus with 5 samples.

Results

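The 10 circadian clock genes described here are Per1, Per2, Per3, Cry1, Cry2, Arntl (also called Bmal1), Clock, Nr1d1, Nr1d2 and Dbp. They were taken by symbol and all 10 were found by Entrez identifier among the 27179 genes of the count tables. The set was chosen by its known role in the clock together with a measured value, the large knockout-over-control difference in reads upstream of Per1. Differences between knockout and control at these genes are therefore given as descriptions: the counts of genes past a threshold are read beside the same count over all genes, and no p-value is offered in support. The clock is a feedback loop in which the transcription factors CLOCK and ARNTL bind DNA together and activate the Period and Cryptochrome genes, whose proteins then repress CLOCK and ARNTL. Nr1d1 and Nr1d2 encode the nuclear receptors REV-ERB alpha and beta, which repress Arntl, and Dbp encodes an output transcription factor that the loop drives. Blood stem and progenitor cells are known to be released from bone marrow on a daily rhythm.

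The acetylation of lysine 14 of histone H3 (H3K14ac) had been mapped by CUT&Tag in LSK cells, the bone marrow fraction that bears Sca-1 and Kit but no lineage markers and holds stem cells and early progenitors. In this assay an antibody brings the Tn5 transposase to the mark. Cells came from male C57BL/6 mice given poly(I:C), which induces the interferon-driven Mx1-cre, so all libraries share that treatment. The 2 knockout libraries carry the genotype Hbo1def/def; T/+ and the 2 control libraries Hbo1def/+; T/+, so controls also have 1 def allele. Hbo1 (Kat7) encodes an acetyltransferase of H3K14, and the comparison asks where the mark differs without it. Neither ages, the hour of collection nor separate mice per library are stated in the sources used here, and the spread between libraries may be technical. Each gene had read counts in the 5 kb before its start (upstream), its body and the 5 kb after its end (downstream). Over these region classes the control libraries held 14811651 and 12793434 counts and the knockout libraries 6466740 and 7633706.

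Levels are counts scaled to the TMM-adjusted total of one region class (CPM), so a CPM upstream cannot be compared with a CPM in a gene body. With no spike-in stated, a fold is relative to the scaling. Scaling on olfactory and vomeronasal receptor genes would shift the median over the whole table upward by 0.94 (log2) for upstream regions, 0.65 for bodies and 0.31 downstream, and totals pooled over region classes would move it by 0.56, 0.22 and -0.01. A bulk profile cannot tell fewer cells with the mark from less of the mark per cell. Over gene bodies of the controls, LSK marker genes had a median level per kb at the 81.8th percentile of all genes and T cell markers one at the 80.3rd, so body levels did not set LSK markers apart. Granulocyte markers summed to between 41.1 and 52.7 CPM in control bodies and between 54.6 and 171 CPM in knockout bodies, most of it from Mpo (28.7 and 21.4 CPM in controls, 137 and 36.4 in knockouts). Mpo and Elane were past the threshold of 4 in the list, Elane and S100a8 overlapped between groups, and Ly6g was lower in knockouts (13.04 and 13.5 against 10.2 and 8.95 CPM). The part of these markers in the differences below was not tested. Kat7 itself had 45.1 and 40.6 CPM upstream in controls and 19.3 and 24.4 CPM in knockouts, not past the threshold (log2 fold -0.97 ± 0.47). Its body had 30.7 and 30.1 CPM in controls and 88.2 and 39.1 CPM in knockouts (1.06 ± 0.32, past it), and downstream the groups overlapped (-0.46 ± 0.47). The mark over these windows does not check the deletion.

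RefSeq promoter sequences (GRCm38.p6) were found for 9 of the 10 genes; Per2 has no entry. The 250 bases before the start were searched on both strands for the E-box CACGTG, the site bound by CLOCK with ARNTL, the D-box TTANGTAA, bound by DBP, the nuclear receptor half-site AGGTCA, part of the REV-ERB element, and the cAMP response element TGACGTCA. Of 27025 promoters of the same length, 6.05% hold the E-box, 2.11% the D-box, 13.8% the half-site and 1.62% the cAMP response element. An E-box was found in 2 of the 9, Per1 and Cry1, a D-box in Per3 and a half-site in 3, Per1, Clock and Nr1d2. The cAMP response element was in 0 of the 9. The promoters of 4 genes are shown because they carry an E-box or a D-box or, for Arntl, belong to an activator gene with little difference in the mark. Those of Clock and Nr1d2, with a half-site alone, are not shown. Capitals mark the matches, which do not overlap each other and are letters in a window rather than proven sites. Per1 lies at chr11:69098699-69098948 (plus strand), Per3 at chr4:151044666-151044915 (minus), Cry1 at chr10:85185055-85185304 (minus) and Arntl at chr7:113207215-113207464 (plus).
Per1: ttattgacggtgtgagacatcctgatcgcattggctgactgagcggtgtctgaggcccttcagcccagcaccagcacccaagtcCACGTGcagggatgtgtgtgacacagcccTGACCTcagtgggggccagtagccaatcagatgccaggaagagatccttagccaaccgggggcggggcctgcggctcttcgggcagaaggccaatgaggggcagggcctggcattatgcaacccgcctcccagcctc
Per3: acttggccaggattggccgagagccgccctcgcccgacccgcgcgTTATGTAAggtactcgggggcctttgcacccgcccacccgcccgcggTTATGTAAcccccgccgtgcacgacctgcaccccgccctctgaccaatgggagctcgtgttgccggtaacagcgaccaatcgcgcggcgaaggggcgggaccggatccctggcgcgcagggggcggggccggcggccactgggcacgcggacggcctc
Cry1: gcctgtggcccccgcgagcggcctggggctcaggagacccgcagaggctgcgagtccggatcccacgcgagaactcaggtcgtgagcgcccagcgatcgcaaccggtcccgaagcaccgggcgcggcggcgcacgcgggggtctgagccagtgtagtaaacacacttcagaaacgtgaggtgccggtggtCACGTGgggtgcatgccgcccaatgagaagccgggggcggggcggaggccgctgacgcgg
Arntl: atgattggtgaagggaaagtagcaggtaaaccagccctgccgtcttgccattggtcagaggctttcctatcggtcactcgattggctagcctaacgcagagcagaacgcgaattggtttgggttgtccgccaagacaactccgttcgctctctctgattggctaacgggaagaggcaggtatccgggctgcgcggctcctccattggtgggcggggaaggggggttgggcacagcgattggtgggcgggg
In Per1 the E-box spans bases 166 to 161 before the start and in Cry1 bases 60 to 55. The D-boxes of Per3 span bases 205 to 198 and 158 to 151. The ratio of observed to expected CpG dinucleotides was at least 0.6, a usual mark of a CpG-rich promoter, in 6 of the 9 genes. Of the 27025 promoters, 34.5% reached that value. Among the 6 genes the ratio was 1.01 in Per3, 0.99 in Cry1, 0.78 in Nr1d2, 0.77 in Arntl, 0.75 in Cry2 and 0.66 in Dbp. It was 0.54 in Clock, 0.41 in Nr1d1 and 0.38 in Per1. The Clock start was taken from a transcript 1263 bp off the deposited length, so the ratio and half-site of Clock are uncertain.

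In the control libraries none of the clock genes stood high in the mark upstream of its start, and Per2 led the order. Per2 had 9.06 ± 0.78 CPM per kb (SD, n = 2 libraries here and below), at the 73.1st percentile of all genes. Nr1d2 (6.43 ± 0.75), Arntl (6.01 ± 0.64), Per1 (5.80 ± 3.29) and Nr1d1 (5.67 ± 0.89) followed, and these neighbours in the order did not differ beyond the spread of the controls. Cry1 (4.32 ± 0.02), Cry2 (4.16 ± 0.26) and Dbp (3.99 ± 0.25) were close together, Clock had 3.24 ± 1.07, and Per3 was lowest with 1.68 ± 0.66 CPM per kb, at the 17.2nd percentile. Over gene bodies Arntl came first with 1.46 ± 0.08 CPM per kb (76.8th percentile), above Per2 (0.95 ± 0.12) and Nr1d2 (0.934 ± 0.005), whose control values overlap. Per3, Clock and Cry1 lay between 0.61 and 0.66, and Nr1d1, Dbp and Per1 at 0.41 ± 0.15, 0.34 ± 0.11 and 0.18 ± 0.05. The lowest was Cry2 with 0.12 ± 0.05 (13.8th percentile). That level is not comparable with the rest, since 23417 bp of the Cry2 body are shared with the antisense gene D930015M05Rik, which is listed at 0 in every library. Of 801 gene models that lie inside another gene's body, all 801 are at 0, against 3.33% of 17239 others, so reads in a stretch that 2 genes share within a region class appear not to be counted. Downstream, Per3 was highest (16.2 ± 4.2 CPM per kb, 90.1st percentile) and Clock lowest (1.19 ± 0.57). The Per3 window is 63.1% body of Uts2, which had 154 and 104 reads in controls, beside 123 and 83 in the Per3 window. The other 36.9% is shared with the Uts2 downstream window, so the Per3 level cannot be told apart from that of Uts2. The Clock window, as placed on RefSeq, is 87.5% body of Tmem165.

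**Figure D1:**
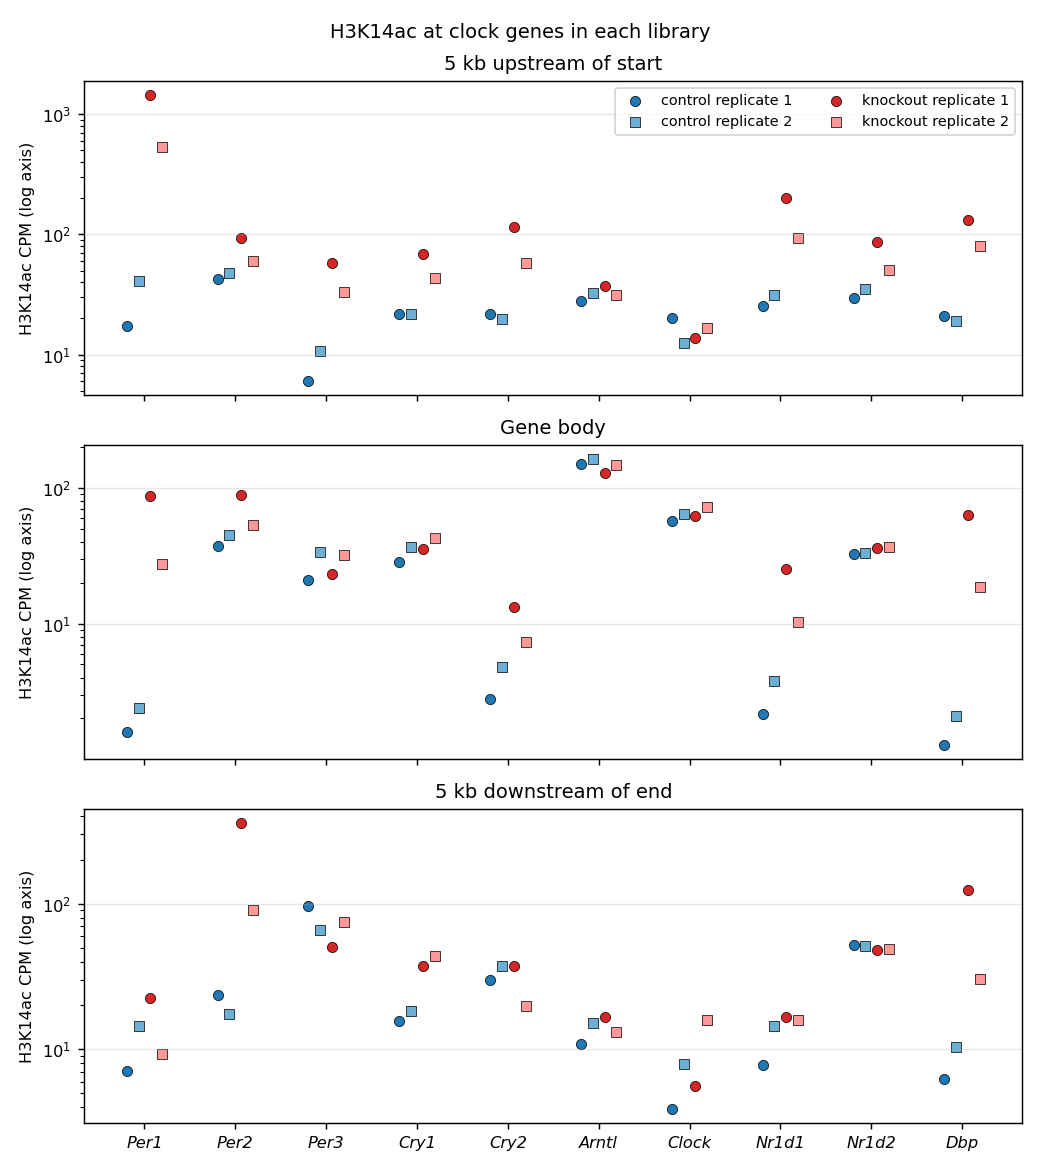
H3K14ac level of the 10 clock genes in each library (CPM, log axis), with 1 panel per region class; circles are replicate 1 and squares replicate 2, blue for control and red for knockout. Upstream of Per1 the knockouts sit at 1435 and 533 CPM and the controls at 17.4 and 40.6, while for Clock and Arntl the 2 groups overlap there.

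Per1, a Period gene that outside signals induce rapidly, had the largest difference of the list. Upstream it had 17.4 and 40.6 CPM in control replicates 1 and 2 and 1435 and 533 CPM in knockout replicates 1 and 2, from 20, 49, 1263 and 481 reads. Both knockouts lay above both controls, and knockout replicate 1 was 2.69 times knockout replicate 2. The mean was 34.0 times higher in the knockouts, and the log2 fold of 5.08 ± 1.39 (SE of the edgeR fit) ranked 9 among 23200 upstream regions tested. Over the Per1 body the levels were 1.58 and 2.38 CPM in controls and 86.9 and 27.6 CPM in knockouts, a log2 fold of 4.84 ± 0.44 that ranked 48 of 21393. Downstream the groups overlapped, with 7.04 and 14.4 CPM in controls and 22.4 and 9.23 CPM in knockouts, and the log2 fold was 0.50 ± 0.62. The difference at Per1 was thus in its body and before its start, with none detectable after its end at a depth of 7 to 18 reads. Without knockout replicate 1 the downstream value of Per1 was -0.21, and the upstream and body values were 4.22 and 3.82.

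A neighbour narrows down where the Per1 reads lay. Vamp2, a vesicle fusion gene, ends before Per1 on the same strand of chromosome 11, and its 5 kb downstream window shares 3433 bp with the Per1 upstream window. That window held 19 and 40 reads in controls and 960 and 363 in knockouts, close to the Per1 pattern. Both windows are 5 kb long, so where reads were counted in both classes the excess of Per1 over Vamp2, 303 and 118 reads in the knockouts and 1 and 9 in the controls, is the least that the 1567 bp next to the Per1 start can hold. The shared stretch can then hold at most the Vamp2 count, and RefSeq's Per1 gene span begins within it, at position 69095108. The Vamp2 downstream window had a log2 fold of 5.59 ± 2.15 and was not past the threshold, and the Vamp2 body had one of 3.77 ± 0.51. Reads that fall in windows of both genes cannot be given to one of them.

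The genes whose upstream levels over the 4 libraries were nearest to those of Per1 included Zfp36, an mRNA decay gene, and Fos, an immediate-early transcription factor gene. Their Euclidean distances from Per1 in log2 CPM were 0.69 and 1.02. Zfp36 had 27.8 and 43.1 CPM in controls and 1616 and 624 CPM in knockouts, and Fos had 29.5, 34.0, 1029 and 374 CPM in the same order. In both, as in Per1, knockout replicate 1 was the highest library.

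The other Period genes differed from Per1 in where the mark was higher. Per2, like Per1 a repressor of CLOCK and ARNTL, had 42.5 and 48.1 CPM upstream in controls and 93.2 and 59.8 CPM in knockouts. The knockouts lay above the controls, but the log2 fold of 0.75 ± 0.49 was not past the threshold. Its body had 37.3 and 44.8 CPM in controls and 87.7 and 52.9 CPM in knockouts, a log2 fold of 0.77 ± 0.30. The largest Per2 difference was downstream, with 23.5 and 17.6 CPM in controls and 356 and 91.0 CPM in knockouts (log2 fold 3.43 ± 0.65). This window holds the start site of Hes6, a gene for a HES-family transcriptional regulator, and is 55.2% covered by the Hes6 upstream window. Hes6 upstream had 35 and 30 reads in controls and 166 and 55 in knockouts, beside 30, 22, 191 and 69 in the Per2 window, and its body 8, 9, 43 and 18. The Hes6 upstream window also takes in 5.2% of the Per2 body, where 378, 453, 474 and 355 reads were counted. The Per2 downstream values cannot be told apart from those of Hes6.

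Per3, the Period gene that is least needed for the rhythm itself, had the lowest upstream controls of the list, 6.08 and 10.8 CPM, against 58.0 and 33.2 CPM in knockouts. With 7, 13, 51 and 30 reads this gave a log2 fold of 2.41 ± 0.52. Over the Per3 body the groups overlapped, with 20.7 and 33.4 CPM in controls and 23.1 and 32.1 CPM in knockouts (0.03 ± 0.34), and that value was -0.28 without control replicate 1 and -0.18 without knockout replicate 2. Downstream they overlapped too (96.3 and 66.2 against 50.3 and 75.2 CPM), in a window that is 63.1% body of Uts2. The upstream window of Per3 shares 47.2% of its length with the body of Vamp3, which had 27 and 28 reads in controls and 90 and 65 in knockouts. The other 52.8% lies in the Vamp3 downstream window, with 22, 25, 69 and 40 reads (2.25 ± 0.42, past the threshold), so the upstream values of Per3 cannot be told apart from those of Vamp3.

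The Cryptochromes, the partners of the Period proteins in repression, were also higher upstream in the knockouts. Cry1 had 21.7 and 21.5 CPM in controls and 68.2 and 43.2 CPM in knockouts, a log2 fold of 1.36 ± 0.46. Cry2 had 21.7 and 19.9 CPM in controls and 115 and 57.6 CPM in knockouts, a log2 fold of 2.04 ± 0.50. Of that window, 64.8% is also downstream of D930015M05Rik, where 35 and 29 reads in controls and 135 and 72 in knockouts gave 2.76 ± 0.52, past the threshold. Over bodies the Cryptochromes parted: Cry1 overlapped between groups (28.6 and 36.3 against 35.5 and 42.8 CPM, 0.27 ± 0.32). The Cry2 body, counted over its unshared stretch, had 2.77 and 4.75 CPM in controls and 13.1 and 7.31 CPM in knockouts (1.43 ± 0.51). Downstream of Cry1 the knockouts were higher (15.7 and 18.4 against 37.3 and 43.5 CPM, 1.25 ± 0.41) but not past the threshold, in a window that holds the start of Mterf2. Downstream of Cry2 the groups overlapped (-0.27 ± 0.42), and that value became 0.04 with receptor scaling and 0.22 without knockout replicate 2. The Cry2 downstream window holds the start of Mapk8ip1.

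Over the reads counted, the activators of the loop showed the smallest upstream differences. Arntl, which pairs with CLOCK, had 27.8 and 32.3 CPM upstream in controls and 37.5 and 31.0 CPM in knockouts (log2 fold 0.19 ± 0.46). Its body, with the most reads of any member (1514, 1634, 689 and 988), had 150 and 162 CPM in controls and 127 and 147 CPM in knockouts. Both knockouts lay below both controls there, by a log2 fold of -0.18 ± 0.29 that turned to 0.04 with pooled totals and 0.46 with receptor scaling. Clock had 19.96 and 12.4 CPM upstream in controls and 13.6 and 16.6 CPM in knockouts (-0.09 ± 0.54, but 0.48 with pooled totals and 0.84 with receptor scaling). Of the Clock upstream window, as placed on RefSeq, 1373 bp are shared with the upstream window of Gm7467, so reads there would not be counted for either gene. The rest of the Gm7467 window had 4 and 9 reads in controls and 23 and 17 in knockouts (2.01 ± 0.58, past the threshold). That rest is 3627 bp of the Clock body as placed, next to the Clock start. The 1373 bp lie on the other side of that start, so the Clock upstream value would leave out the stretch nearest to it. The Clock body overlapped between groups, with 56.8 and 64.3 CPM in controls and 62.1 and 72.3 CPM in knockouts (0.15 ± 0.29). Downstream, Arntl overlapped (0.18 ± 0.55), and Clock, with 5, 10, 3 and 12 reads, was the only member that did not pass the filter on low counts. The Arntl window there is 69.7% body of Btbd10 and the Clock window 87.5% body of Tmem165. Whether Arntl and Clock differ from the repressors in their response was not tested.

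The REV-ERB genes, which repress Arntl, differed in size over their bodies, a contrast that was not tested. Nr1d1 had 25.2 and 31.5 CPM upstream in controls and 199 and 93.1 CPM in knockouts (log2 fold 2.36 ± 0.58). Its body had 2.17 and 3.76 CPM in controls and 25.2 and 10.3 CPM in knockouts (2.57 ± 0.49), so the mark differed on both sides of the start. Nr1d2 had 29.5 and 34.8 CPM upstream in controls and 86.4 and 51.0 CPM in knockouts, above the controls but not past the threshold (1.09 ± 0.48). The Nr1d2 body hardly differed, with 32.6 and 32.9 CPM in controls and 36.3 and 36.4 CPM in knockouts (0.15 ± 0.32). Downstream, Nr1d1 had 7.83 and 14.4 CPM in controls and 16.8 and 15.8 CPM in knockouts (0.55 ± 0.56), in a window of which 56.4% is shared with that of Thra, a thyroid hormone receptor gene. Reads in that part appear not to be counted. The other 43.6% is body of Thra, so the Nr1d1 downstream values cannot be told apart from those of Thra. Nr1d2 downstream had 52.4 and 51.1 CPM in controls and 48.5 and 48.8 CPM in knockouts (-0.09 ± 0.33, or 0.22 with receptor scaling).

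Dbp, the output gene, was the only member past the threshold in all 3 region classes. Upstream it had 20.8 and 19.1 CPM in controls and 132 and 79.8 CPM in knockouts (log2 fold 2.40 ± 0.53). Its body had 13, 21, 339 and 124 reads, or 1.28 and 2.08 CPM in controls and 62.7 and 18.5 CPM in knockouts (4.58 ± 0.47), which ranked 80 of 21393. Downstream it had 6.26 and 10.4 CPM in controls and 125 and 30.3 CPM in knockouts (3.16 ± 0.57). Dbp lies in a dense stretch of chromosome 7. Of its upstream window, 88.5% is the body of Car11, a carbonic anhydrase-related gene, with 21, 18, 69 and 57 reads. All of its downstream window is the body of Sphk2, a sphingosine kinase gene, with 19, 30, 348 and 131 reads, and 42.7% of it is also upstream of Rpl18, a ribosomal protein gene, with 9, 15, 181 and 57 reads. Knockouts lay above controls in each of these neighbour windows, and the flank values of Dbp cannot be separated from them. The Dbp body also lies 85.1% in the Sphk2 downstream window, which held 1, 1, 21 and 21 reads, and 89.3% in that of Car11, which held 0, 0, 1 and 2. Those downstream windows of Sphk2 and Car11 overlap each other over most of this stretch. Reads there appear not to be counted for Sphk2 or Car11, so their low counts do not measure the stretch. For Dbp itself, 14.9% of the body is shared with the Sphk2 body and so appears not to be counted.

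**Figure D2:**
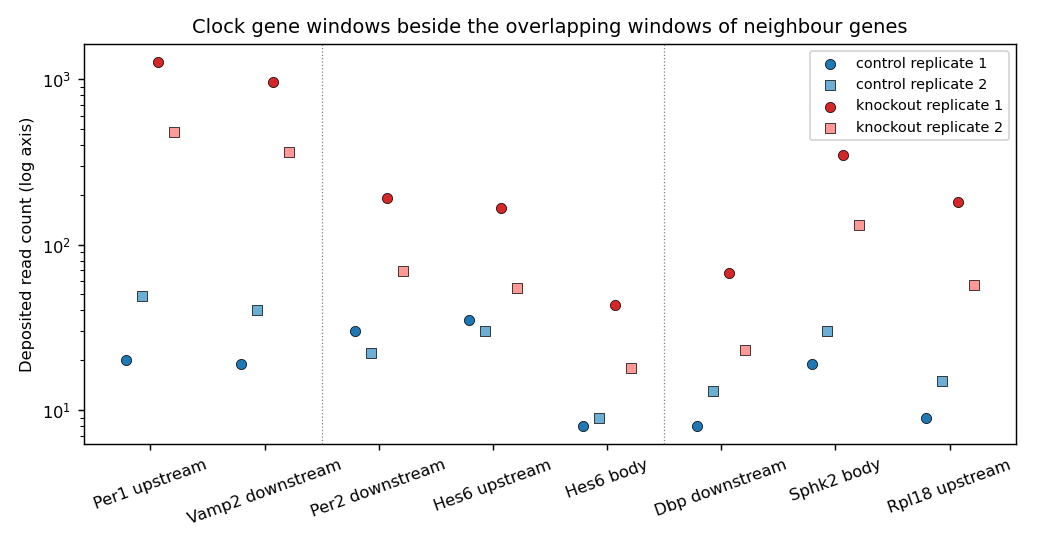
Deposited read counts (log axis) in each library for clock gene windows and the windows of neighbour genes that overlap them, in 3 groups split by dotted lines. The Per1 upstream and Vamp2 downstream windows hold 1263 and 960 reads in knockout replicate 1, and the Per2 downstream and Hes6 upstream windows 191 and 166.

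Counted together, 6 of the 10 genes (Per1, Per3, Cry1, Cry2, Nr1d1 and Dbp) were higher upstream past the edgeR threshold (adjusted p below 0.05) and 0 were lower. Over all upstream regions 24.0% were past it and higher and 14.3% lower. Among regions of genes with a CpG-rich promoter 44.2% were higher, and among the 6 members with such a promoter Per3, Cry1, Cry2 and Dbp were. Both knockouts lay above both controls in 8 of 10 members and in 37.8% of all upstream regions. The median log2 fold was 1.70 over the members and -0.09 over all regions. Since the list came from this contrast, nothing is read from these shares. The count of 6 fell to 0 when control replicate 1 or knockout replicate 1 was left out, to 1 (Per3) for control replicate 2 and to 4 for knockout replicate 2. Few regions passed in these smaller designs: of all upstream regions, 71 of 23794 were higher without control replicate 1, 0 of 23993 without knockout replicate 1 (5770 had an unadjusted p below 0.05) and 644 of 23737 without control replicate 2, against 5557 of 23200 with all libraries. The log2 folds without control replicate 1 were 4.60 for Per1, 2.47 for Dbp and 2.11 for Cry2. Separately, receptor scaling ended the call of Per1 at a larger log2 fold of 6.14.

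Over gene bodies 5 of 10 (Per1, Per2, Cry2, Nr1d1 and Dbp) were past the threshold and higher and 0 were lower, against 23.1% and 15.2% of all bodies tested, or 36.6% higher among genes with a CpG-rich promoter. The groups stood apart with the knockouts higher in 6 of 10, against 40.6% of all bodies. The median log2 fold was 0.52 over the members and 0.02 over all. Per2 and Cry2 lost their calls with either control library or knockout replicate 1 left out, and also with receptor scaling. The calls of Per1, Nr1d1 and Dbp were kept with each of the 4 libraries left out in turn and under every scaling tried, with log2 folds of 3.82, 1.82 and 3.48 at the lowest. Downstream, 2 of 9 tested (Per2 and Dbp) were past it and higher and 0 lower, where 10.8% of all were higher and 2.29% lower. Knockouts lay above controls in 4 of 10 members, against 29.9% of all regions tested, and below in 1, Nr1d2, against 32.7%. Per2 lost its downstream call without control replicate 1 (3.65 ± 1.68) or control replicate 2 (3.24 ± 1.48), at a similar fold and a larger SE, and Dbp without knockout replicate 1 (1.85 ± 0.69).

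**Figure D3:**
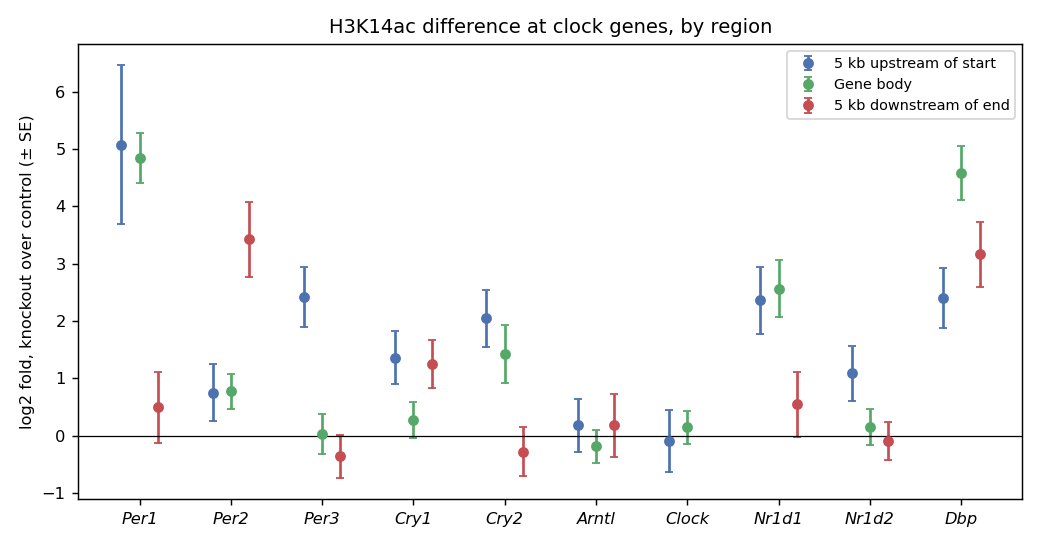
Log2 fold of knockout over control for the 10 genes in each region class, with bars of ± 1 SE from the edgeR fit. Per1 stands at 5.08 upstream and 4.84 over its body but at 0.50 downstream, and Arntl and Clock lie near 0 in the classes tested.

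**Figure D4:**
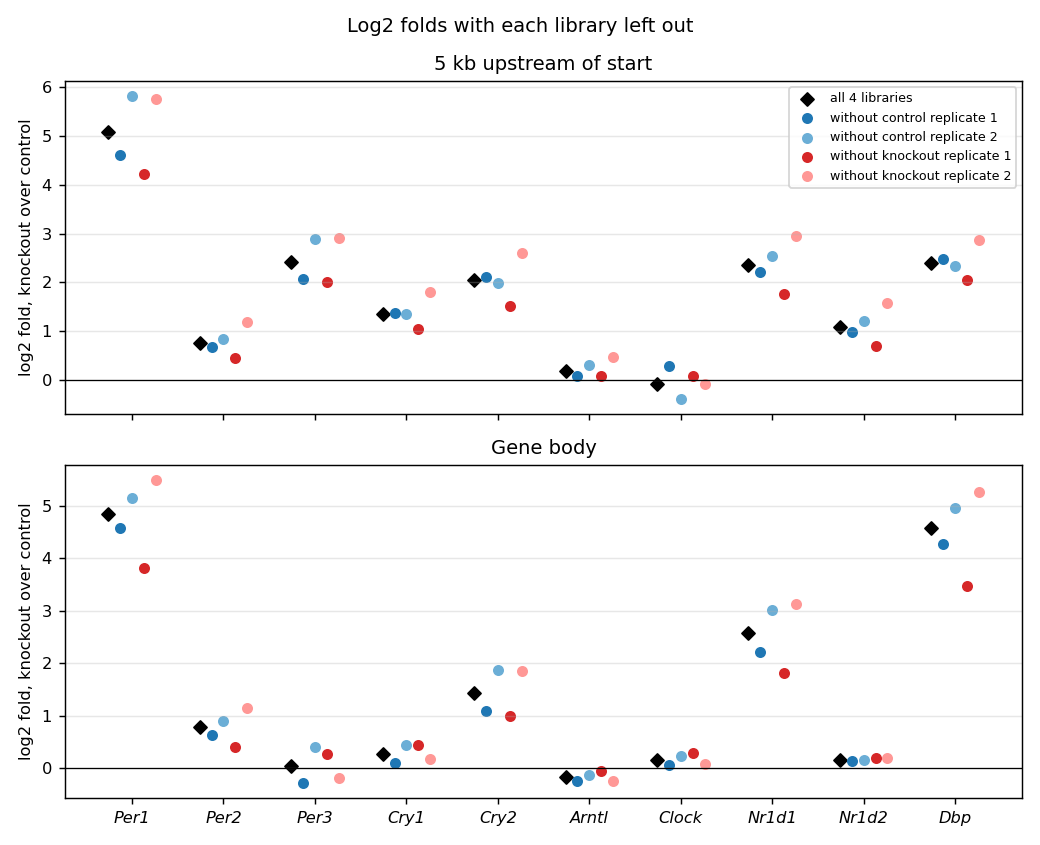
Log2 folds upstream (top) and over gene bodies (bottom) with all 4 libraries (black) and with each library left out. Without knockout replicate 1 the upstream values of Per1, Nr1d1 and Cry2 are 4.22, 1.75 and 1.51, and each stays above 0.

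Among the members past the threshold upstream or over the body, knockout replicate 1 was above knockout replicate 2. Upstream this order held in 9 of the 10 genes, by 1.58 to 2.69 times for the 6 past the threshold. Among all upstream regions past it and higher, 96.7% had this order, with a median ratio of 1.88, against 48.3% of all regions tested. In gene bodies past the threshold the ratio was 3.39 for Dbp, 3.15 for Per1, 2.44 for Nr1d1, 1.80 for Cry2 and 1.66 for Per2. It was near 1 or below it in some windows where both knockouts lay above both controls without a call, with 0.996 for the Nr1d2 body, 1.06 for Nr1d1 downstream and 0.857 for Cry1 downstream. What sets the 2 libraries apart was not tested.

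The share of a gene's own reads that lay upstream does not depend on scaling between libraries. Summed over all genes the controls had 7.86% and 8.43% and the knockouts 16.5% and 11.4%. Per1 had 44.4% (95% Wilson interval 30.9 to 58.8) and 53.8% (43.7 to 63.7) in controls and 72.4% (70.2 to 74.4) and 71.5% (67.9 to 74.8) in knockouts. Intervals cover counting error only. The treatment of duplicates is not given, and if PCR copies of a molecule count as separate reads, the intervals are too narrow for that error as well. For Cry2 the share went from 27.5% and 20.2% to 52.6% and 44.8%, and for Per3 from 2.06% and 3.002% to 25.1% and 9.93%. Cry1 (7.49% and 6.25% to 22.1% and 10.9%) and Nr1d2 (7.89% and 9.59% to 25.5% and 14.1%) also had both knockouts above both controls, as did Nr1d1 (47.5% and 40.4% to 54.7% and 50.9%). For Cry1, Cry2, Nr1d1 and Nr1d2 some control and knockout intervals overlap. Per2 stayed between 10.7% and 11.3% in the 4 libraries and Clock between 2.22% and 3.81%. Arntl was low in all of them, with both knockouts (4.51% and 2.73%) above both controls (2.05% and 2.30%). The Arntl interval of knockout replicate 2 (1.89 to 3.92) overlaps those of both controls. Dbp went the other way, from 53.3% and 40.4% in controls to 22.2% and 32.9% in knockouts. With 45 and 57 reads in the controls, the Dbp interval of knockout replicate 2 (27.0 to 39.3) overlaps those of both controls. Taken over the 2 flanks alone, without the body, the upstream share gave another picture for some genes. The Dbp difference, knockout minus control, went from -19.3 to 0.14 percentage points. Per2, level over the whole gene, had 62.03% and 72.5% in controls and 30.04% and 43.9% in knockouts (a difference of -30.3 points), in a downstream window that holds the Hes6 start. Clock went from 0.16 to -3.29 points, and the other 7 genes had higher mean shares in the knockouts. Summed over all genes the share over the flanks was also higher there, at 61.2% and 54.3% against 48.02% and 48.55% in controls. No test was run on these shares.

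**Figure D5:**
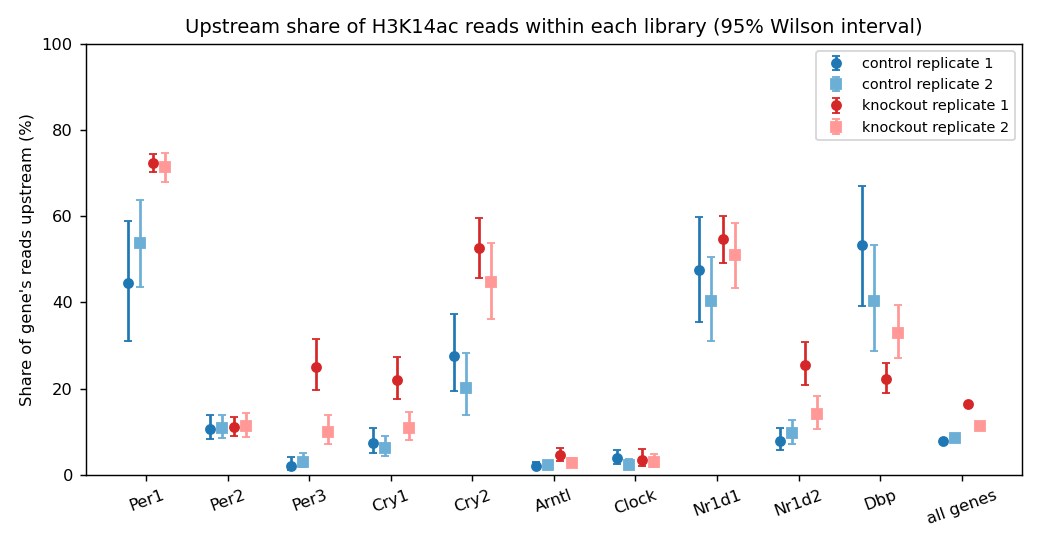
Share of each gene's reads that lay in the 5 kb upstream (percent, bars are 95% Wilson intervals) in each library, with all genes at the right. Per1 is at 72.4% and 71.5% in the knockouts, and Dbp is lower in the knockouts (22.2% and 32.9%) than in the controls (53.3% and 40.4%).

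A further 18 genes tied to the clock were taken as a list, among them paralogs of the activators, PAR bZIP factors, kinases and ubiquitin ligase subunits. Upstream, 6 of 18 were past the threshold and higher and 2 lower, over bodies 7 and 4 of 17 tested, and downstream 1 and 0 of 16 tested, beside the shares of all genes given above. Nfil3, which encodes a repressor at D-boxes that competes with DBP, had the highest upstream log2 fold (3.66 ± 0.87), with 26.04 and 36.5 CPM in controls and 625 and 171 CPM in knockouts. Arntl2, a paralog of Arntl, had the lowest (-1.70 ± 0.54), with 135 and 93.6 CPM in controls and 22.7 and 47.6 CPM in knockouts. Over bodies the highest was Bhlhe40, an E-box repressor gene (2.01 ± 0.45), with 4.64 and 4.45 CPM in controls and 24.4 and 12.5 CPM in knockouts. Downstream the highest was Csnk1e, the gene of a kinase that marks Period proteins for decay (1.61 ± 0.42), with 43.0 and 39.1 CPM in controls and 168 and 85.7 CPM in knockouts. With receptor scaling Arntl2 (-0.82) and Nfil3 (4.79) were no longer past the threshold upstream. Without control replicate 1 no call of Nfil3, Arntl2, Bhlhe40 or Csnk1e given here was kept, at log2 folds of 3.45, -1.41, 2.03 and 1.68, in a design where few regions pass. Higher calls numbered 71 upstream, 1409 over bodies and 667 downstream without that library, against 5557, 4935 and 2338 with it. Nfil3, Arntl2 and Csnk1e also lost theirs when control replicate 2 was left out, Nfil3 and Arntl2 when knockout replicate 1 was, and Arntl2 when knockout replicate 2 was and with pooled totals (-1.14).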

How the data were processed

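H3K14ac CUT&Tag was analysed in 4 of the 5 libraries listed; the HBO1 library was not analysed here. The authors deposited raw read counts, keyed by Entrez gene; the submitters' processing notes name featureCounts and mm10. For the aligner, annotation release, duplicates and read filters the status is: not given in the sources used here. Series tables and per-library files differed in 0 values. The authors also deposited a gene length in bp, used for levels per kb of bodies. Symbols, starts and promoter sequences came from RefSeq GRCm38.p6. A flank was taken as the 5 kb beside the RefSeq transcript nearest in length to the deposited one; it matched exactly for 6 members and differed by 7 bp for Per1, 43 bp for Per3, 138 bp for Nr1d1 and 1263 bp for Clock, whose windows are uncertain.

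Each region class was fitted over the whole table by edgeR 4.0.16 under R 4.3.3, using its quasi-likelihood test (filterByExpr with minimum count 10 and minimum total 15, TMM, no covariate, Benjamini-Hochberg over all genes tested, threshold 0.05). The SE is the log2 fold divided by the square root of F. Alternatives were DESeq2 1.42.0 size factors and its Wald test, totals pooled over region classes, scaling on 1462 olfactory and vomeronasal receptor genes, the later edgeR fit, no filter, each library left out, and a block on replicate number; a block with crossed numbers was chosen after seeing the data. Simulated counts with known changes were used to check the edgeR script. Python 3.11.15 with pandas 2.3.3, statsmodels 0.14.6 and matplotlib 3.10.9 gave shares, intervals and plots.

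The members and the lists were chosen with earlier results of these data known. Named genes are all members, the highest and lowest log2 fold of the 18 further clock genes in each region class, the 3 genes nearest to Per1 upstream (log2 CPM, prior count 2) and genes whose windows overlap a member's; some genes that this rule names are not reported here.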

Additional observations from a re-analysis of the deposited data

How the results depend on the processing

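Upstream, the count of 6 members past the threshold was 6 by the DESeq2 Wald test, the later edgeR fit and with no filter, 7 with DESeq2 size factors or receptor scaling and 8 with pooled totals, and ran from 0 to 4 with 1 library left out. Over gene bodies the count of 5 was 3 with receptor scaling, 4 by the Wald test (Per2 lost) and with no filter, and ran from 3 to 5 with 1 library left out. Downstream the count of 2 was 3 with receptor scaling (Cry1 gained) and ran from 1 to 2 with 1 library left out. All counts in every setting were of higher genes. Same-numbered control and knockout libraries share a replicate number, and their names carry neighbouring serial numbers whose meaning is not stated in the sources used here. Same-numbered libraries deviated in opposite directions. The correlation of deviations over all genes tested, those that differ between groups included, was -0.28 upstream, -0.36 in bodies and -0.22 downstream. With the replicate block the counts were 5, 3 and 2, and with the crossed pairing 7, 5 and 3. Upstream shares taken over the flanks alone moved beyond the spread for 8 of 10 members. Signs turned at these values near 0. Clock upstream went to 0.48 with pooled totals and 0.84 under receptor scaling, and lay between -0.40 and 0.28 with 1 library left out (0.09 without knockout replicate 1). The Arntl body went to 0.038 with pooled totals and 0.46 with receptor scaling. Downstream, receptor scaling took Cry2 and Nr1d2 to 0.044 and 0.22. Leaving out 1 library, the Per3 body ran from -0.28 to 0.40, Arntl downstream from -0.038 to 0.43, Per1 downstream from -0.21 to 1.12 and Cry2 downstream from -0.76 to 0.22. Arntl downstream without control replicate 2 and Clock downstream did not pass the filter and gave no value. Counts of 3 to 19 reads limit the downstream values of Per1, Arntl, Clock and Nr1d1.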
